A study of Mus musculus with 24 samples.

Results

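The liver expression of 7 genes of the syndecan and heparan sulfate route for lipoprotein uptake was followed in 24 mice, out of 20192 gene symbols tested. They were Sdc1, Sdc2 and Sdc4, which encode syndecan core proteins, Ext1, Ndst1 and Hs2st1, which encode enzymes that build heparan sulfate, and Lrp1, which encodes an endocytic lipoprotein receptor. A probe was taken for one of these genes when the gene name in the scanner files was identical to the symbol, which gave 16 of the 56605 probes on the array, and all 16 were among the 30003 probes bright enough to be tested. The genes were chosen as a pathway, but with earlier results of these data known. The study had also measured Sdc1 by RT-qPCR in these mice, so Sdc1 is a gene that the study itself picked from these samples.

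The livers were taken from fasting C57bl/6J males, all of the third generation bred in either of 2 lineages. Total RNA of each mouse was hybridised to 1 Agilent mouse expression array in 1 colour. The control lineage was bred on a growing diet with added high-oleic sunflower oil, and the omega 3 lineage on that diet with added fish oil, whose main fatty acid was eicosapentaenoic acid (EPA). The reference group (STD_Cont in the labels, 9 mice) was of the control lineage and was fed a low-fat diet. The HFoleic group (HFD_Cont, 8 mice) was of the control lineage and the HFepa group (HFD_O3, 7 mice) of the omega 3 lineage, and both received a high-fat, high-sucrose obesogenic diet. No low-fat group of the omega 3 lineage was measured here, so diet and lineage cannot be told apart between HFepa and reference. No transgene or deletion is named in the labels, and age is not given there. Whole liver was used, in which fewer cells of a type and less RNA per cell cannot be told apart. Between 50.9% and 60.8% of the probes of an array were well above background and 0 spots were saturated. The arrays lay on 3 slides, each of which held all 3 groups. Each level below is a quantile-normalized log2 signal and each difference is between group means of it, so a difference of 1 is a doubling.

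Syndecans are proteoglycans of the cell surface, whose core protein spans the membrane and carries long sulfated heparan sulfate chains outside the cell. On the hepatocyte surface facing the blood, these chains bind triglyceride-rich lipoprotein remnants, and syndecan-1 is the main core protein known to take them up in the mouse liver. The pattern of sulfate groups on the chain, set in the Golgi apparatus, decides which proteins it binds, and the receptor encoded by Lrp1 takes up remnants alongside it.

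A pair of sequences is shown because Sdc1 was the one gene of the group that changed. The probe A_55_P2842699 reads the coding part of the transcript, from base 323 on, and lies in mouse build mm9 at chr12:8796227-8796286 on the plus strand. The capitals mark the letters TCTGG, in which a serine codon runs into a glycine codon, the kind of site at which the heparan sulfate chain is attached.
A_55_P2842699: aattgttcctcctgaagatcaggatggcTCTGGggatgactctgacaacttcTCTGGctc
The other Sdc1 probes lie further downstream, A_65_P20200 from base 1837 (chr12:8799275-8799334) and A_52_P479269 from base 1945 (chr12:8799383-8799442), so the 3 probes read the transcript at separate places.

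The Sdc1 promoter is the stretch of 250 bases before the gene's start in the RefSeq table of build GRCm38.p6, at chr12:8771146-8771395 on the plus strand, with each GC box (GGGCGG, searched on both strands) in capitals.
Sdc1 promoter: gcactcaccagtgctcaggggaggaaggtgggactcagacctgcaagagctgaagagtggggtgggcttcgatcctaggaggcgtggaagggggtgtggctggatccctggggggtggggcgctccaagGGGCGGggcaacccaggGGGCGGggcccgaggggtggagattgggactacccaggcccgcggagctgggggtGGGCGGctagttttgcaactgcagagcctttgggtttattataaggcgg
The table held promoters for 4 of the 7 genes, Sdc1, Sdc4, Hs2st1 and Lrp1. Their GC content was 64.4% to 68.0%, against a median of 52.4% over 32851 mouse promoters. A GC box stood in each of the 4, with 3 matches in Sdc1, 4 in Sdc4 and 1 each in Hs2st1 and Lrp1, and in 32.7% of all promoters. The letters TATAA, also searched on both strands, stood in Sdc1 and Sdc4 and in 22.8% of all promoters, and in Sdc1 the 2 matches overlap on opposite strands near the start. The letters CACGTG, the core of the E-box read by clock factors, stood in none of the 4 windows and in 6.02% of all promoters.

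Sdc1 was lower in the livers of mice on the obesogenic diet, and it was the only one of the 7 genes with a probe past the threshold in any comparison. For its brightest probe, A_52_P479269, the level was 11.64 to 12.62 in the 9 reference mice, with a median of 12.03. It was 11.08 to 11.44 in the 8 HFoleic mice, with a median of 11.36, and 11.26 to 11.96 in the 7 HFepa mice, with a median of 11.47. All HFoleic mice lay below every reference mouse, and so did 6 of the 7 HFepa mice, the exception being HFepa replicate 3. For A_65_P20200, the level was 11.13 to 12.03 in reference (median 11.48), 10.67 to 11.10 in HFoleic (median 10.95) and 10.71 to 11.43 in HFepa (median 10.88). Again all 8 HFoleic mice and 6 of 7 HFepa mice lay below every reference mouse, with the same HFepa mouse highest in its group, whereas the median of HFepa was here below that of HFoleic. The dim coding probe A_55_P2842699 read 6.88 to 7.62 in reference (median 7.09), 6.37 to 6.91 in HFoleic (median 6.76) and 6.55 to 7.13 in HFepa (median 6.95). Here the groups overlapped, and 6 of the 8 HFoleic mice lay below every reference mouse.

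**Figure D1:**
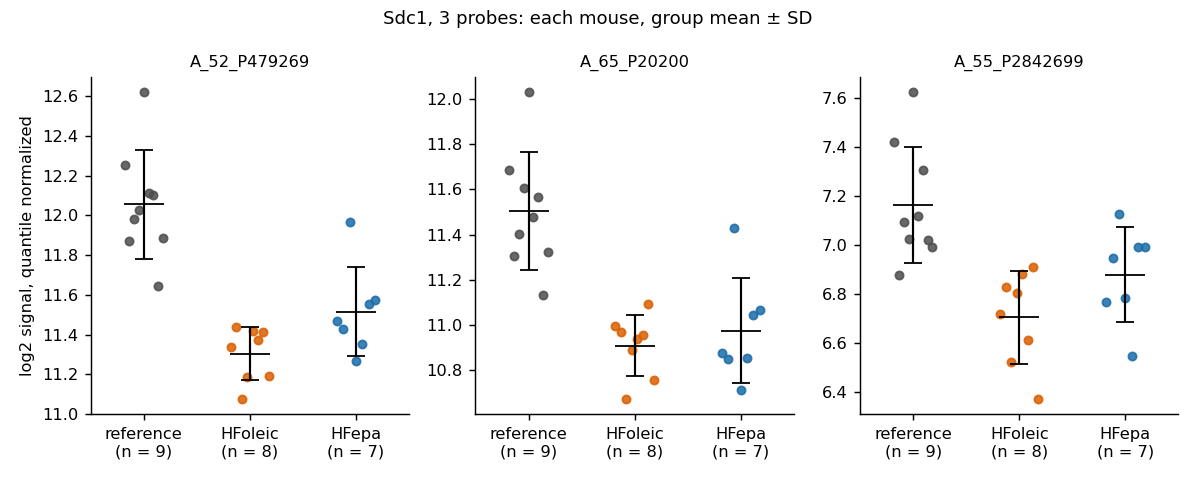
Level of Sdc1 (quantile-normalized log2 signal, vertical axis, its range differs between panels) in each mouse of the 3 groups, 1 panel per probe; points are mice, the long line is the group mean and the bars are the SD. In the first panel the 8 HFoleic mice sit between 11.08 and 11.44, all below the 9 reference mice, which start at 11.64.

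In HFoleic against reference, which asks what the diet changed within the control lineage, Sdc1 fell by 0.75 log2 units at A_52_P479269 (95% interval -0.97 to -0.54), a signal ratio of 0.594, with an adjusted p of 0.000367 from limma over all tested probes. At A_65_P20200 it fell by 0.60 (interval -0.81 to -0.38, limma adjusted p = 0.00154), and at A_55_P2842699 by 0.46 (interval -0.66 to -0.25, limma adjusted p = 0.00633). The intervals of the 3 probes overlapped, and the value of the dim probe A_55_P2842699 was -0.70 when processed signals were used in place of median signals, so no order between the probes is read from these values. By the size of p the 3 probes stood at places 15, 105 and 528 among 30003. The first probe was lower on each of the 3 slides, with differences of -0.91, -0.78 and -0.56 between HFoleic and reference mice of the same slide. Across the 24 mice the probes moved together, with Pearson correlations of 0.978, 0.895 and 0.883 between them, or 0.966, 0.798 and 0.797 with group means subtracted.

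In HFepa against reference, where both diet and lineage differ, Sdc1 fell by 0.54 at A_52_P479269 (interval -0.76 to -0.31, ratio 0.688) and by 0.53 at A_65_P20200 (interval -0.75 to -0.31, ratio 0.693), each with a limma adjusted p of 0.0282. At A_55_P2842699 the difference was -0.29 (interval -0.50 to -0.07) and did not pass, with a limma adjusted p of 0.205, although all 7 HFepa mice lay below the reference mean. The within-slide differences at the first probe were -0.44, -0.67 and -0.47. These 2 calls sat close to the threshold. With no filter on dim probes, with only the 2 groups compared and with the methods' t-test, both were lost. The Benjamini-Hochberg adjusted p were 0.0611, 0.108 and 0.172. The t-test as run here called 0 probes of the whole array in this comparison. The study marked Sdc1 as significant in HFepa against reference, both on its arrays after adjustment (ratio 0.69) and by RT-qPCR. The mean of the 3 probes gave -0.45 here (limma adjusted p = 0.0558). At A_52_P479269 the call was lost without any 1 of HFepa replicates 1, 2, 4, 6 and 7 or reference replicates 1 and 2, with differences of -0.56 to -0.50 and limma adjusted p of 0.0509 to 0.0668. At A_65_P20200 it was lost without the same 7 mice and also without reference replicate 4, with differences of -0.55 to -0.49 and limma adjusted p in that same range.

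HFepa against HFoleic compares the lineages on the same diet. The Sdc1 difference there was 0.21 at A_52_P479269 (interval -0.02 to 0.44, limma adjusted p = 0.555), with 6 of 7 HFepa mice above the HFoleic mean. It was 0.07 at A_65_P20200 (interval -0.16 to 0.29, limma adjusted p = 0.899) and 0.17 at A_55_P2842699 (interval -0.05 to 0.39, limma adjusted p = 0.615). A difference between the lineages was not detected with this number of arrays. The intervals of the probes together span differences from -0.16 to 0.44 log2 units between HFepa and HFoleic. In the study's RT-qPCR, Sdc1 stood lower in HFepa than in HFoleic, the other direction, and was not marked as significant there. The comparisons against reference share their 9 control mice, so their Sdc1 values are given side by side and are not independent of each other.

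The levels of hepatocyte markers and of clock genes are given beside Sdc1. Markers of hepatocytes, the cells in which liver Sdc1 is mainly expressed, averaged 16.30 to 16.59 in reference, 15.98 to 16.34 in HFoleic and 16.15 to 16.41 in HFepa over 6 of 6 listed genes. Among these 6, Tat (tyrosine aminotransferase) was the only one called, 0.63 lower in HFoleic than in reference with a limma adjusted p of 0.00858. Cyp3a11, a cytochrome P450, stood at -0.86 (limma adjusted p = 0.0505), while Alb (albumin) and Serpina1a stood at -0.00 and -0.01, Apoa1 at -0.10 and Ttr (transthyretin) at 0.12, so the lower mean came mostly from 2 genes. A clock score, the mean log2 signal of 2 clock genes of the Bmal1 phase minus that of 5 of the Per phase, had a median of 0.70 in reference, -0.82 in HFoleic and -0.05 in HFepa, with overlapping groups. Across the 24 mice Sdc1 at A_52_P479269 correlated with that score at 0.566, and at 0.304 with group means subtracted. With the score as a covariate, Sdc1 in HFoleic against reference stood at -0.66 for A_52_P479269 (limma adjusted p = 0.00857), at -0.52 for A_65_P20200 (0.0246) and at -0.39 for A_55_P2842699 (0.0788), so the third call was lost. Both calls of HFepa against reference were lost too, at -0.49 and -0.48, each with a limma adjusted p of 0.0647. The part of the score in these differences was not tested beyond that fit.

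Markers of other cell types that a piece of liver can hold gave few calls. In HFoleic against reference, the lists for sinusoidal endothelium, for Kupffer cells and macrophages, and for lymphocytes and plasma cells had 0 members called. Of 5 stellate cell markers, Lrat was the only one called and rose by 0.56 (limma adjusted p = 0.0015). In that list 2 markers stood higher and 3 lower, with a median difference of -0.09. Of 3 tested cholangiocyte markers Sox9 was the only one called and fell by 0.65 (limma adjusted p = 0.0279), and all 3 stood lower. Cholangiocytes also carry Sdc1, and their 3 markers averaged 6.36 to 8.07 in reference, 6.38 to 6.75 in HFoleic and 6.55 to 6.96 in HFepa. Their part in the Sdc1 difference was not tested. Of the markers listed for fat, muscle and exocrine pancreas, Adipoq, Acta1, Ckm, Cpa1, Prss2 and Pnlip did not reach the brightness needed for a test. Plin1 and Lep for fat, Myh4 for muscle and Cela1 for exocrine pancreas were tested, and none was called. Cela1 was bright, with medians of 12.32 in reference, 12.84 in HFoleic and 12.48 in HFepa. Its difference in HFoleic against reference was 0.50 (limma adjusted p = 0.188).

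The other syndecans did not pass the threshold. Sdc2, the syndecan also known from fibroblasts and endothelium, was read by A_51_P157255 at chr15:32964204-32964263. Its level was 11.92 to 12.45 in reference (median 12.07), 11.89 to 12.23 in HFoleic (median 12.14) and 11.84 to 12.21 in HFepa (median 12.09). The groups lay on top of each other, with a difference of -0.03 in HFoleic against reference (interval -0.19 to 0.14, limma adjusted p = 0.901) and of -0.09 in HFepa against reference (interval -0.25 to 0.08, limma adjusted p = 0.718).

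Sdc4, a syndecan of most cell types that also sits at focal adhesions, was read by A_51_P323248 at chr2:164250116-164250175. It read 11.58 to 12.18 in reference (median 11.91), 11.82 to 12.33 in HFoleic (median 12.15) and 11.95 to 12.16 in HFepa (median 12.11). The groups overlapped, with 6 of 8 HFoleic mice and 7 of 7 HFepa mice above the reference mean. The differences were 0.19 in HFoleic (interval 0.02 to 0.36, limma adjusted p = 0.167) and 0.16 in HFepa (interval -0.01 to 0.33, limma adjusted p = 0.418), opposite in sign to those of Sdc1. Neither passed the threshold.

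The chain enzymes were close to their reference levels. Ext1, part of the polymerase that lengthens the chain, was read by A_51_P416689 at chr15:52904855-52904914. It stood at 9.08 to 9.42 in reference, 9.05 to 9.41 in HFoleic and 8.96 to 9.28 in HFepa, with medians of 9.21, 9.17 and 9.14. Its differences were -0.05 in HFoleic (interval -0.18 to 0.08) and -0.10 in HFepa (interval -0.23 to 0.03), both far from the threshold, with limma adjusted p of 0.721 and 0.546.

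Ndst1, which starts sulfation by replacing acetyl groups on the chain with sulfate, had 4 probes on mouse chromosome 18. The brightest, A_51_P236314, read 14.03 to 14.44 in reference, 14.26 to 14.45 in HFoleic and 14.13 to 14.43 in HFepa, with medians of 14.30, 14.42 and 14.27. All 8 HFoleic mice lay above the reference mean and within the reference range or just over it, with a difference of 0.13 (interval 0.01 to 0.25, limma adjusted p = 0.211). The scanner files annotate this probe to a predicted transcript. The other probes of Ndst1 gave differences of 0.00, 0.10 and 0.05 in HFoleic against reference, none past the threshold.

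Hs2st1, which adds sulfate to the uronic acid units of the chain and is known to affect remnant clearance by the liver, had 3 probes that did not read alike. The brightest, A_55_P2902830 at chr3:144096651-144096710, read 9.00 to 9.63 in reference (median 9.19), 8.89 to 9.18 in HFoleic (median 9.03) and 8.90 to 9.14 in HFepa (median 8.99). All 8 HFoleic and all 7 HFepa mice lay below the reference mean, and 3 and 4 of them below every reference mouse. The differences were -0.19 in HFoleic (interval -0.34 to -0.05, limma adjusted p = 0.0850) and -0.24 in HFepa (interval -0.38 to -0.09, limma adjusted p = 0.117), neither past the threshold. With slide as a block the first was -0.21 with a limma adjusted p of 0.0392. Without reference replicate 8, the lowest of its group, the values were -0.22 (limma adjusted p = 0.033) and -0.27 (limma adjusted p = 0.0479), so 1 mouse decides on which side of the threshold this probe falls. A_66_P126239 gave -0.05 and -0.07 and A_55_P2740755 gave 0.07 and -0.14 in the same comparisons. HFoleic replicate 3 is missing from that last HFoleic value, because its spot was marked as an outlier.

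**Figure D2:**
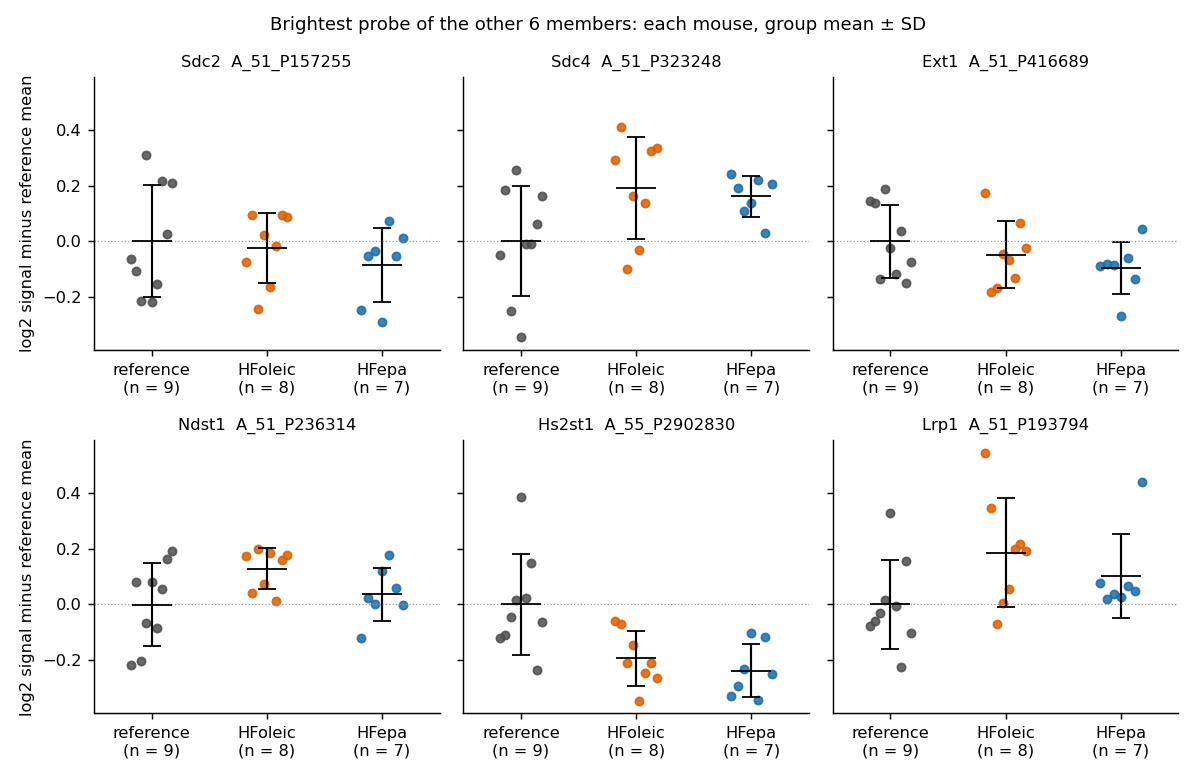
Level of the brightest probe of Sdc2, Sdc4, Ext1, Ndst1, Hs2st1 and Lrp1 in each mouse (vertical axis: log2 signal minus the reference mean of that probe); points are mice, the long line is the group mean and the bars are the SD. The groups overlap in all 6 panels, and in the Hs2st1 panel all 8 HFoleic and all 7 HFepa mice sit below the dotted line of the reference mean.

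Lrp1 was read by 3 probes. The brightest, A_51_P193794 at chr10:126975573-126975632, read 12.46 to 13.01 in reference (median 12.65), 12.61 to 13.22 in HFoleic (median 12.87) and 12.70 to 13.12 in HFepa (median 12.73). The HFoleic mice tended to the upper part of the reference range, 7 of 8 above its mean, with a difference of 0.19 (interval 0.02 to 0.36, limma adjusted p = 0.189). The HFepa mice were close together apart from replicate 7, at 0.10 above reference (interval -0.07 to 0.28, limma adjusted p = 0.665).
The remaining Lrp1 probes carried less information. A_52_P202045 read 8.55 to 10.85 in reference, where replicate 1 stood alone at the top, and gave -0.11 in HFoleic and -0.30 in HFepa against reference. Without that mouse the values were 0.09 and -0.10, so the first turned its sign. A_55_P1985633, annotated to a macrophage cDNA, was well above background on 18 of 24 arrays and gave -0.02 and 0.17. Without HFepa replicate 3, at 7.53, the second value was -0.05. No Lrp1 probe passed the threshold in any comparison.

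Over all 16 probes, 3 were called in HFoleic against reference, all lower and all of Sdc1, which is 18.8% of them, while 7.23% of the 30003 tested probes were called, 3.19% as lower and 4.05% as higher. In HFepa against reference 2 of 16 probes were called, both lower and of Sdc1, or 12.5% against a background of 0.393%, with 0.203% called lower. The probes of 1 gene are not independent, and by genes 1 of 7 was called in either comparison, against 8.07% and 0.391% of 20192 gene symbols read by their brightest probe. Limma called 0 of 16 probes in HFepa against HFoleic, and 0 of 16 were under an unadjusted p of 0.05. Over all 30003 probes 0 were called there, with 2910 under an unadjusted p of 0.05. Without Sdc1, the 13 remaining probes had a median difference of 0.00 in HFoleic against reference and of -0.03 in HFepa against reference, beside medians of -0.00 and 0.00 over all tested probes. Their smallest limma adjusted p was 0.085 and 0.117, both at Hs2st1.

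**Figure D3:**
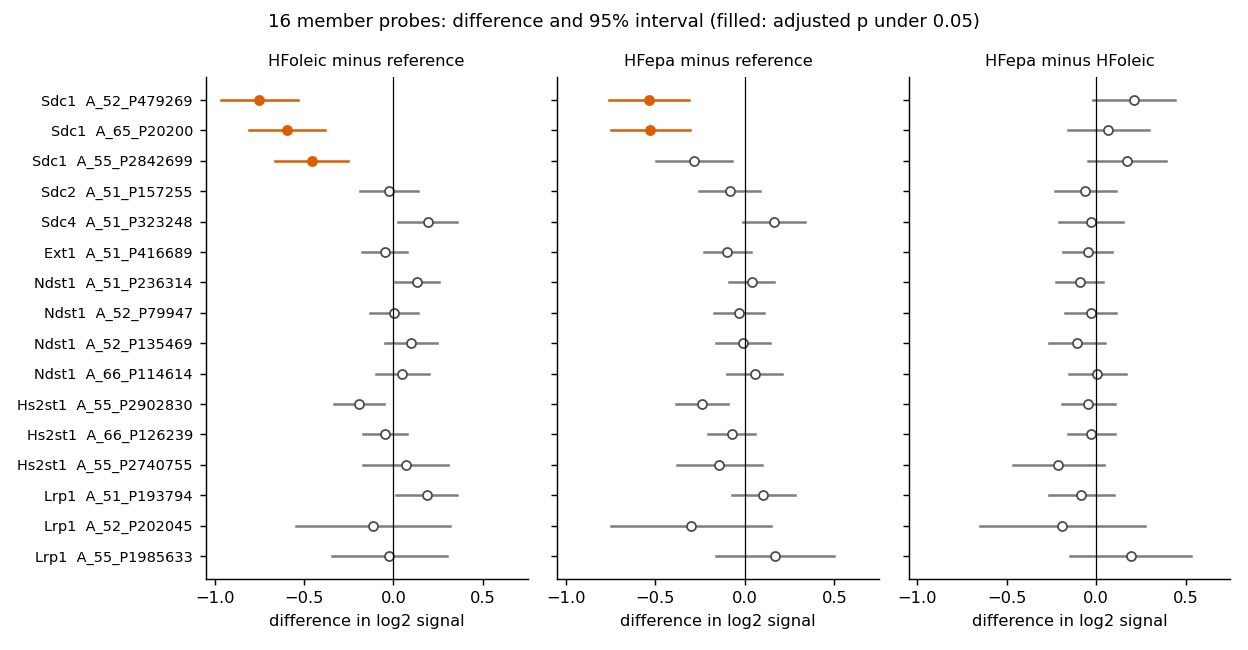
Difference in log2 signal between group means (horizontal axis) with its 95% interval for each of the 16 probes, in the 3 comparisons; filled points passed an adjusted p of 0.05. The 3 filled points of HFoleic minus reference and the 2 of HFepa minus reference are all Sdc1, between -0.75 and -0.46, and the third panel has 0 filled points.

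Of 65 other genes of the route, 52 were bright enough to be tested, each by its brightest probe. In HFoleic against reference 11 of the 52 were called (21.2%, against 8.07% of all gene symbols), 6 higher and 5 lower, while 4.52% and 3.55% of all symbols were called higher and lower, and their median difference was 0.02. In HFepa against reference 1 of 52 was called, as higher (1.92%, against 0.198% of all symbols called higher), and in HFepa against HFoleic 0 by limma, with 7 under an unadjusted p of 0.05. With the clock score as a covariate, 3 of the 11 calls remained, among them Papss1 and Ids (limma adjusted p = 0.00462 and 0.0405).

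Among the core proteins that carry heparan sulfate beside the 3 syndecans, 0 of 7 tested genes were called. The smallest p was that of Gpc4, a glypican held to the membrane by a lipid anchor, at 0.19 (limma adjusted p = 0.0967), and it was called without HFoleic replicate 5, at 0.22 (limma adjusted p = 0.0484). Gpc2, Gpc3, Gpc5 and Gpc6 were too dim to test. Of the other polymerising enzymes 0 of 3 were called, with Extl2 first at 0.09 (limma adjusted p = 0.45).

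Of the 11 enzymes and carriers that make the linker and the precursors, Papss1 was the only gene called in HFoleic. That is 9.09%, against 8.07% of all gene symbols. Papss1 makes the activated sulfate used by every sulfotransferase. Papss2, which makes it too, stood at -0.03 in HFoleic (limma adjusted p = 0.922) and at -0.21 in HFepa (limma adjusted p = 0.502). Papss1 read 7.69 to 8.17 in reference (median 7.93), 8.21 to 8.90 in HFoleic (median 8.45) and 7.80 to 8.27 in HFepa (median 8.18). All 8 HFoleic mice lay above every reference mouse. The HFepa mice overlapped both groups, 4 of 7 above every reference mouse. Papss1 rose by 0.63 in HFoleic (interval 0.44 to 0.81, ratio 1.55, limma adjusted p = 0.000401) and stood at 0.25 in HFepa (limma adjusted p = 0.213). Between HFepa and HFoleic the difference was -0.38 (limma adjusted p = 0.184), which is the smallest adjusted p of the 52 genes in that comparison.

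Of 8 genes of lysosomal breakdown of the chain, 4 were called in HFoleic (50%, against 8.07% of all gene symbols), 2 higher and 2 lower. However, the probes of 2 of these, Sgsh and Idua, hold the repeats described further on. Without them 1 was higher (Ids) and 1 lower (Gusb). Ids, which removes sulfate from the uronic acid, read 9.81 to 10.27 in reference (median 9.89), 10.09 to 10.47 in HFoleic (median 10.35) and 10.09 to 10.39 in HFepa (median 10.29). It rose by 0.35 in HFoleic (interval 0.21 to 0.49, limma adjusted p = 0.00301) and by 0.33 in HFepa (interval 0.18 to 0.47, limma adjusted p = 0.0377). Ids was the 1 gene called in HFepa, and that call was lost without any 1 of HFepa replicates 1, 2, 4, 5, 6 and 7 or reference replicates 1, 2, 4, 5, 7 and 9, at 0.31 to 0.35 with limma adjusted p of 0.0523 to 0.082. Gusb, the lysosomal beta-glucuronidase, fell by 0.38 in HFoleic (limma adjusted p = 0.0113), with 1 of its 2 probes called.

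The calls of Hs3st2, Sgsh and Idua came from probes that hold a simple repeat, a feature that was looked at after their values were seen. The Hs3st2 probe, the only one called among 8 sulfation and editing enzymes (-0.52, limma adjusted p = 0.00435), holds 17 GT repeats in a row. The Sgsh probe (-0.57, limma adjusted p = 0.00481) holds 11 GT repeats, and the Idua probe (0.43, limma adjusted p = 0.0349) holds 10 CA repeats. Hs3st2 encodes a 3-O-sulfotransferase known mainly from brain, and Sgsh and Idua encode lysosomal enzymes. The Hs3st2 and Sgsh probes were among the brightest of the array, at places 230 and 258 of 30003, and correlated with each other at 0.975 over the 24 mice and with the mean of 69 other probes holding at least 8 GT repeats at 0.985 and 0.98. Over the whole array, 71 of 71 probes with at least 8 GT repeats were called lower in HFoleic against reference (median -0.61). Of the 41 with at least 8 CA repeats 36 were called higher and 0 lower (median 0.47), against 2063 of 29891 probes without either run called in either direction. What these probes bind in the sample was not tested, and the 3 genes are not read here as changes of their transcripts. None of the 16 probes of the 7 genes holds such a run. Leaving out probes with a run, 8 of 49 genes were called (16.3%), 5 higher and 3 lower.

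Of 4 tested genes linked to the release of syndecan ectodomains from the cell, 3 encode releasing enzymes and 1, Timp3, an inhibitor of them. In HFoleic, 1 enzyme gene and the inhibitor gene were called, both lower (50%, against 8.07% of all gene symbols). Timp3 fell in HFoleic by 0.63 at its brighter probe (limma adjusted p = 0.0274) and by 0.59 at its other probe (limma adjusted p = 0.0308). The call of the brighter was lost without HFoleic replicate 1 or 8, at -0.59 and -0.61 (limma adjusted p of 0.0575 and 0.0517). It was also lost with no filter, only the 2 groups compared, the methods' t-test and the clock score (Benjamini-Hochberg adjusted p of 0.0546, 0.065, 0.1 and 0.167). Mmp14, a membrane-bound metalloproteinase, fell by 0.30 (limma adjusted p = 0.0429), and that call was lost in 11 of 24 fits that left out 1 mouse, at -0.32 to -0.25 with limma adjusted p of 0.05 to 0.0954. These 11 mice were reference replicates 1, 5, 6, 7 and 9, HFoleic replicates 1, 3, 4, 6 and 8 and HFepa replicate 3. The Mmp14 call was also lost with no filter, normexp background correction, only the 2 groups compared, the methods' t-test and the clock score. The Benjamini-Hochberg adjusted p were 0.0925, 0.0586, 0.066, 0.0837 and 0.325. Adam10 and Adam17, which encode sheddases, were at -0.02 and 0.16, and Mmp9 was too dim to test.

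Of 11 other lipoprotein receptors and helpers, 6 stood higher and 5 lower in HFoleic than in reference. Of these, 3 were called, all higher (27.3%, while 4.52% of all gene symbols were called higher). Vldlr, the VLDL receptor gene, was one of them and read 6.88 to 8.59 in reference (median 7.47), 7.56 to 8.89 in HFoleic (median 8.50) and 7.59 to 9.51 in HFepa (median 8.06). The groups overlapped, with all 8 HFoleic mice above the reference mean. It rose by 0.83 in HFoleic (interval 0.34 to 1.33, limma adjusted p = 0.0338), with both of its probes called, and stood at 0.69 in HFepa (limma adjusted p = 0.201). That call was lost without any 1 of HFoleic replicates 1, 3, 5, 6, 7 and 8 or reference replicates 1, 2, 3, 6, 7 and 9, at 0.75 to 0.84 with limma adjusted p of 0.0518 to 0.0714. It was also lost with no filter on dim probes (0.84, limma adjusted p = 0.0641) and with the clock score as a covariate (0.44, limma adjusted p = 0.378). Apoe, the remnant ligand for both heparan sulfate and Lrp1, stood at 0.00, and Lipc, hepatic lipase, at 0.30 (limma adjusted p = 0.32).

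**Figure D4:**
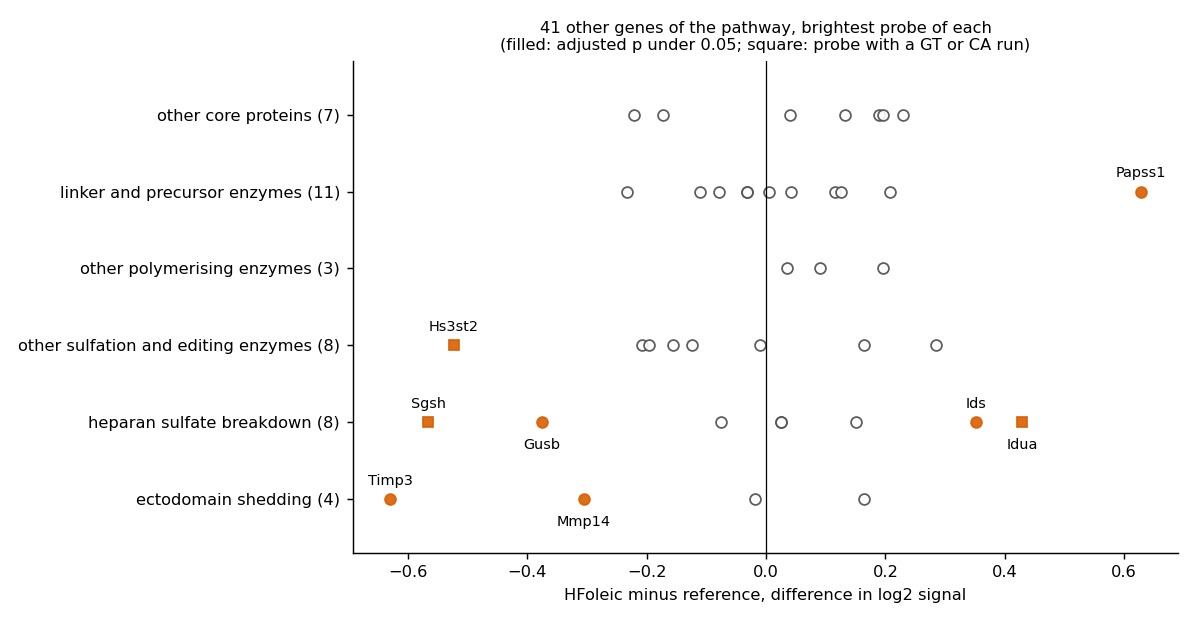
Difference in log2 signal between HFoleic and reference (horizontal axis) of the 41 tested genes that make, carry, break down or shed heparan sulfate proteoglycans, by list, each read by its brightest probe; filled marks passed an adjusted p of 0.05, and squares are the called genes whose probe holds a GT or CA run. The 8 named marks span -0.63 (Timp3) to 0.63 (Papss1), and the core protein and polymerising lists have 0 filled marks.

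Levels of different genes were not set against each other, since probes differ in how bright a given amount of RNA makes them. How the 7 genes varied together from mouse to mouse was examined over the 24 livers for 21 pairs of brightest probes, with group means subtracted. One pair passed the adjustment by both coefficients, Sdc2 with Sdc4, at a Pearson r of 0.665 (permutation p = 0.00038, adjusted p = 0.00798) and a Spearman rho of 0.597 (permutation p = 0.00237, adjusted p = 0.0498). It was 0.550 without the 2 mice farthest from the median of Sdc2 and 0.663 with slide means subtracted as well. Within groups it was 0.717 in reference and 0.896 in HFoleic, and -0.01 in HFepa. Sdc1 was not part of it, with r = -0.07 to Sdc2 and -0.31 to Sdc4. Sdc1 and Hs2st1 stood at a Pearson r of 0.535 (permutation adjusted p = 0.0987) but at a Spearman rho of 0.269 (permutation adjusted p = 0.608). Without the 2 mice farthest from the median of Sdc1, r was 0.302. Within groups r was 0.842 in reference, where replicate 5 stood highest at both probes (12.62 and 9.63), and 0.05 and -0.01 in HFoleic and HFepa.

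Across the 24 livers and 19046 gene symbols with values on all arrays, the genes whose brightest probes followed Sdc1 most closely were Cth, a cysteine-forming enzyme (Pearson r = 0.932), Csnk1a1, a casein kinase (0.931), and Fh1, the fumarate hydratase of the citric acid cycle (0.923). All 3 were lower in HFoleic than in reference, Cth by 0.80 (limma adjusted p = 0.00224), Csnk1a1 by 0.32 (limma adjusted p = 0.00463) and Fh1 by 0.42 (limma adjusted p = 0.0102). With group means subtracted these correlations were 0.831, 0.856 and 0.882.
The closest to Sdc2 were Masp1, Snap47 and Mettl5 (0.794 to 0.734), to Sdc4 9030204H09Rik, Nom1 and Acsm1 (0.807 to 0.797), and to Ext1 Sprtn, AK045785 and Pttg1ip (0.795 to 0.714). Ndst1 ran with Mrps21, Gm7936 and Prelid1 (0.899 to 0.847) and Hs2st1 with Fam187b, Gucy2c and Rps6kl1 (0.871 to 0.850). Lrp1 ran with Cdpf1, Ift27 and Srebf1 (0.816 to 0.775). Srebf1, which encodes a transcription factor of fatty acid synthesis, rose by 1.02 in HFoleic (limma adjusted p = 0.00552), and Rps6kl1 fell by 0.66 (limma adjusted p = 0.0159). These are the highest of many correlations over mice that share their groups and slides, and they are given as a description.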

How the data were processed

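The authors deposited the scanner text of every array, made with Agilent Feature Extraction 10.10.1.1, in which median, mean and processed signals are intensities, not normalized between arrays, per the file headers, with 0 or 1 marks for outlier spots and spots well above background. They also deposited a table of log2 values for 32176 probes, filtered by a rule not given in the sources used here and quantile normalized. Against the scanner values of the same arrays its columns correlated at no less than 0.9997. They had medians of 7.825 to 7.829 and served as an alternative.

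Spots marked as outliers (134 to 627 per array) were left out, log2 median signals were averaged per probe, and probes were kept where 75% or more of a group's arrays marked them well above background (28804 to 34432 of 56605 probes were above background per array) and quantile normalized. Limma 3.58.1 in R 4.3.3 (package data.table, version 1.17.8) fitted group means over all 24 arrays (lmFit, eBayes), with 3 two-sided contrasts, Benjamini-Hochberg adjustment over 30003 probes, and calls at an adjusted p under 0.05. lmFit, the pairwise comparisons and the adjustment follow the study's methods, whose t-test was run as an alternative ("the methods' t-test"). Other genes of the route, cell type markers and gene counts were read from the brightest tested probe. Named were all 7 genes with every probe, each listed gene called in any comparison or else the smallest p of its list, and the 3 genes most correlated with each. Correlations between the 7 genes used 100000 permutations. The genes and lists were chosen with earlier results of these data known. The fit was tested on simulated data. Probe positions (mm9, 1-based) and gene names are those of the scanner files. Promoters are from RefSeq (GRCm38.p6). Sequences were read with pandas 2.3.3 in Python 3.11.15 and figures drawn with matplotlib 3.10.9. The number of arrays limits the precision. Each array is a separate mouse. Some genes of the lists are counted but not reported here by name.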

Additional observations from a re-analysis of the deposited data

Results flagged for a closer look

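Among 87 sets of values of 1 probe in 1 group, 5 held a mouse that stood apart from the rest of its group by Dixon's criterion at the 95% level (chance marks about 1 in 20). Lrp1 at A_51_P193794 was highest in HFepa replicate 7, at 13.12. Lrp1 at A_52_P202045 was highest in reference replicate 1, at 10.85. Lrp1 at A_55_P1985633 was lowest in HFoleic replicate 8, at 5.74, and highest in HFepa replicate 3, at 7.53. Papss1 at A_51_P196127 was lowest in HFepa replicate 7, at 7.80. HFepa replicate 7 thus appears for both Lrp1 and Papss1.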

How the results depend on the processing

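Alternatives covered the authors' table, processed signal, normexp, the filter on dim probes, outlier spots, slide, slide row, the replicate number, a clock score, the methods' t-test, a fit of the 2 groups compared alone, the mean of a gene's probes, and leaving out each mouse. Sdc1 kept its call in HFoleic against reference at A_52_P479269 under all of them, with differences of -0.80 to -0.60. At A_65_P20200 the call was kept under all run for it, with differences of -0.64 to -0.52, and at A_55_P2842699 under all run for it but the clock score. The mean of probes replaces the brightest probe alone, so it was not run for the dimmer Sdc1 probes. The 3 called probes of the 7 genes became 2 with the clock score and 4 with slide as a block. The 2 calls of HFepa against reference became 0 with no filter on dim probes, with the clock score, with the methods' t-test and with only the 2 groups compared, and 0 to 3 on leaving out a mouse, and with the mean of its 3 probes Sdc1 was not called either (-0.45, limma adjusted p = 0.0558). HFepa against HFoleic gave 0 throughout. The count of HFoleic calls over 24 such fits was 3 to 4.

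For the 52 other genes, 11 calls in HFoleic against reference became 7 with no filter and 3 with the clock score (Papss1 and Ids among them), and 7 to 12 on leaving out a mouse, the 7 without HFoleic replicate 8. An alternative added after seeing the data, without probes holding a GT or CA run, gave 8 of 49. The 1 call in HFepa against reference became 0 with processed signal, no filter, the clock score, the methods' t-test, only the 2 groups compared and the replicate block, and 0 to 1 on leaving out a mouse. HFepa against HFoleic gave 0 to 0. Over all probes, no filter left 1451, 0 and 0 calls in the 3 comparisons, and the clock score 551, 4 and 0, against 2170, 118 and 0. Without a filter more probes were tested, and the smaller fits held fewer arrays. The cause of the changed counts was not tested.

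Replicate numbers were not shown to pair the mice: over 22 pairs with the same number, correlations of deviations ran from -0.302 to 0.349, 5 of them over 0.1. With the replicate number as a block, the 7 genes gave 3, 2 and 0 called probes and the other genes 10, 0 and 0.

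By Pearson's r the count of correlated pairs was 1 under each setting, but without subtracting group means that pair was Sdc1 with Hs2st1 (r = 0.713, permutation adjusted p = 0.00252). By both coefficients it was 0 there and 0 in the authors' table, with Spearman adjusted p of 0.0805 and 0.0538 for these pairs. Direction turned for no called probe. Signal over background limits the third Lrp1 probe.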
